A study of Homo sapiens with 20 samples.

Results

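The emerging RUNX1 peaks are the regions of a chromatin immunoprecipitation sequencing (ChIP-seq) data set that were weak in control cells and clearly covered after knockdown of PU.1. They were chosen by their level: reads per peak were divided by the total of in-peak reads of the library and multiplied by 1000000 (CPM), and a peak was kept if its mean was under 10 over the control libraries and 20 or more over the knockdown libraries. This left 481 of 26642 peaks (1.81%). Because both means chose the peaks, their difference over the 12 libraries is given as a description, without a test.

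RUNX1 was immunoprecipitated from THP-1 cells, a human line long established from an acute monocytic leukemia. Control cells carried a scramble shRNA (n = 6 libraries) and knockdown cells an shRNA against PU.1 (n = 6), both switched on by doxycycline in the medium, so that the drug and an expressed shRNA were shared by the groups. Batch 1 comprised 3 control and 2 knockdown libraries, batch 2 comprised 3 control and 4 knockdown libraries, and the libraries are separate immunoprecipitations. Each genotype is 1 line made with 1 shRNA, so a property of a line and the effect of knockdown cannot be told apart. Neither the PU.1 transcript nor the markers of the cell type are measured by this assay, so neither was checked. A quality table of the study divides the batch 1 libraries between the genotypes differently from the labels, and the labels were followed here.

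RUNX1 is a transcription factor of the Runt family that binds DNA with its partner CBFB and is needed for the emergence of blood stem cells and for several blood lineages. PU.1, encoded by SPI1, is an ETS factor that drives monocytic and B cell differentiation and occupies many enhancers together with RUNX1 in myeloid cells. Binding of such factors is found both at promoters and, for cell type specific genes, at distant enhancers.

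Sequence could be read for the few emerging peaks that reached a promoter, and these windows are shown first because they carry the DNA under the peak. Of 35116 RefSeq promoter windows (GRCh38.p14, the 250 bases before a gene's start), 10 windows of 9 genes were overlapped by 9 emerging peaks. The core of the RUNX binding motif was searched as TGTGGT and TGCGGT on both strands (ACCACA and ACCGCA on the other strand), and 7 of the 10 windows held it. The share was 16.3% over all windows and 20.9% over the 8324 windows overlapped by any RUNX1 peak. The PU.1 core GAGGAA, or TTCCTC on the other strand, was found in 2 of the 10 windows and in 23.6% of all windows. A match describes letters only, and the 2 windows of 1 lncRNA gene overlap each other. Shown are the windows of 3 protein-coding genes and of LOC124904049, a lncRNA gene with 3 cores, in the direction of the gene, with the RUNX core in capitals. GNLY encodes granulysin, a protein of cytotoxic granules, IL13 encodes a cytokine of type 2 immunity, and RCN3 encodes a calcium-binding protein of the endoplasmic reticulum.
GNLY, chr2:85694108-85694357, plus strand: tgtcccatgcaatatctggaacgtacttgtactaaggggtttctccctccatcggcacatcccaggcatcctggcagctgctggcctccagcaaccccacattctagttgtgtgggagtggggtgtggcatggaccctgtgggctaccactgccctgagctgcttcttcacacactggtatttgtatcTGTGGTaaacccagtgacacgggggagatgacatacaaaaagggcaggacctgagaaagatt
IL13, chr5:132657923-132658172, plus strand: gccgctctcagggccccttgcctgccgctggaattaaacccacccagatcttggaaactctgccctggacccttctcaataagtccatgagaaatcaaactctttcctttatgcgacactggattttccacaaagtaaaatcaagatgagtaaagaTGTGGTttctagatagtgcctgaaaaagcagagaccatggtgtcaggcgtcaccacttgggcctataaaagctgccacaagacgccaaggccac
RCN3, chr19:49527753-49528002, plus strand: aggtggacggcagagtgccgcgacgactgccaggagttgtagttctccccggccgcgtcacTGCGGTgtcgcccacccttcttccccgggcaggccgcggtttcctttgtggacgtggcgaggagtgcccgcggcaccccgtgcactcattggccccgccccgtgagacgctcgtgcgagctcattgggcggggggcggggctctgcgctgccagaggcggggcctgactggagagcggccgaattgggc
LOC124904049, chr17:68695100-68695349, minus strand: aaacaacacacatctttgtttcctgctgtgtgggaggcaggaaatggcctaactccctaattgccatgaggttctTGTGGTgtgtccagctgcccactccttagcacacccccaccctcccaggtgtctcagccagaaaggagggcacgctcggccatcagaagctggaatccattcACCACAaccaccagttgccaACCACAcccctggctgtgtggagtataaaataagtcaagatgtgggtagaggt
The core lay 62 bases before the start of GNLY, 94 before that of IL13 and 189 before that of RCN3. In LOC124904049 the cores lay 175, 73 and 53 bases before the start. The windows of TEKT4, HDHD5 and LINC01433 did not hold the RUNX core, and LINC01433 was 1 of the 2 windows with the PU.1 core. The other was a window of the lncRNA gene LOC102724734, which also held 3 RUNX cores. Apart from GNLY and TEKT4, these windows were chosen after their values were seen.

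At the peak over the GNLY promoter (chr2:85693873-85694613), control libraries were at 4.51, 7.34 and 16.0 CPM (lowest, median, highest) and knockdown libraries at 24.5, 34.3 and 44.4. At the IL13 promoter (chr5:132657858-132658492), the values were 3.11, 5.48 and 14.3 in control and 20.2, 22.5 and 30.8 in knockdown cells. The peak at RCN3 (chr19:49527581-49528134) was the weakest of these, with 5.18, 9.26 and 12.7 in control and 17.5, 19.99 and 24.4 in knockdown cells. In each of the 3 peaks the lowest knockdown library lay above the highest control library. The rule favours this: it held for 88.1% of the 481 emerging peaks and for 12.4% of all peaks. The same applies wherever a named peak is described as without overlap. The lncRNA peak (chr17:68695002-68695557) had 2.13, 2.99 and 14.3 in control and 22.1, 25.8 and 39.1 in knockdown libraries, again without overlap.

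One emerging peak contained a microRNA gene. The hairpin of MIR26A1 (chr3:37969404-37969480, plus strand) lay inside a peak within CTDSPL (chr3:37969297-37969912), a gene for a phosphatase of the small C-terminal domain phosphatase family. Its mature products are shown with the seed, bases 2 to 8, in capitals.
hsa-miR-26a-5p: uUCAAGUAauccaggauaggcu
hsa-miR-26a-1-3p: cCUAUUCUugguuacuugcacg
Control libraries had 2.87, 3.25 and 9.01 CPM at this peak and knockdown libraries 17.4, 25.9 and 33.7. The groups did not overlap, which the rule favours. The assay measures RUNX1 at the locus, not the microRNA. The peak was named after its values were seen.

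Across the 481 peaks, the mean control level had a median of 8.18 CPM (range 2.93 to 9.99) and the mean knockdown level a median of 24.2 (range 20.01 to 88.2). The ratio of the means had a median of 3.15 and ran from 2.05 to 11.8. Set against all 26642 peaks, the median emerging peak stood at the 4.89th percentile of control levels and at the 41.6th percentile of knockdown levels. Emerging peaks thus ended mostly among the weaker to middling sites of the knockdown cells, and 17 reached 40 CPM or more. Per kilobase of peak width, the median was 11.7 in control and 37.6 in knockdown cells, where all peaks had 30.6 and 30.1.

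Many members lay close to a threshold: 134 had a control mean from 9 to under 10 and 135 a knockdown mean from 20 to under 22. The 3 members nearest the control threshold had control means of 9.98, 9.99 and 9.99, and the 3 nearest peaks outside it 10.01, 10.01 and 10.02. The 3 members nearest the knockdown threshold all had a mean of 20.01, and the 3 nearest peaks outside it had 19.998, 19.996 and 19.96. The border is therefore one of degree. For comparison, 1671 peaks were weak in both groups (control under 10, knockdown under 20), and 621 vanishing peaks met the mirrored rule (control 20 or more, knockdown under 10).

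In-peak totals ran from 630247 to 1199004 reads in control libraries and from 938745 to 1719840 in knockdown libraries. Emerging peaks held 0.336% to 0.475% of these in control libraries (mean 0.379 ± 0.0536, SD, n = 6) and 1.19% to 1.33% in knockdown libraries (mean 1.26 ± 0.0521, n = 6). The median member had 6 to 8 reads in a control library and 24 to 43 in a knockdown library. A count of 0 allows up to 3 reads, equal to 2.50 to 4.76 CPM in the control libraries, so the lowest control levels lie at or near this limit. Such limits cover counting error only. All values are relative to the in-peak total, and a shift of RUNX1 binding at all sites at once would not be seen.

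**Figure D1:**
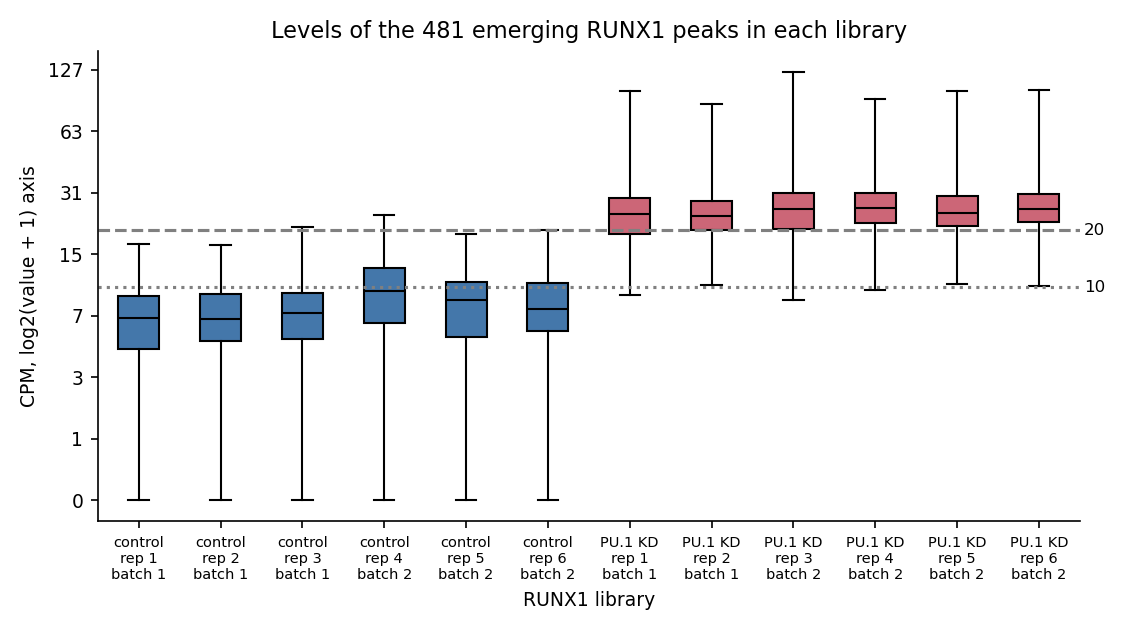
Levels, in CPM, of the 481 emerging peaks in each of the 12 RUNX1 libraries, on a log2(value + 1) axis labelled in CPM. Boxes span the quartiles with the median, whiskers run to the lowest and highest peak, and the dotted and dashed lines mark the thresholds of 10 and 20 that the group means had to meet; medians were 6.67 to 9.52 in control and 23.7 to 25.9 in knockdown libraries.

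As shown in the plot of levels by library, medians of the members were 6.67 to 7.25 CPM in the control libraries of batch 1 and 7.66 to 9.52 in those of batch 2. The highest was control replicate 4, which also had the fewest reads: 10 members were at 20 or more in it, against 0 to 2 in the other control libraries. Without it, the rule found 594 peaks, of which 465 were among the 481. Over the choices that left out each library in turn, 442 to 594 peaks were found and 289 of the 481 were in all 12 choices.

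The 10 strongest members, by knockdown mean, lay in or near genes of varied function. The strongest lay within TMEM120B (chr12:121758130-121759221), which encodes a membrane protein of the nuclear envelope. Control libraries had 3.11, 8.96 and 11.3 CPM (lowest, median, highest) and knockdown libraries 52.9, 95.5 and 124. That is 3 to 10 reads against 73 to 172 reads, and the 4 knockdown libraries of batch 2 lay above the 2 of batch 1. The next lay within H6PD (chr1:9249837-9250977), which encodes the hexose-6-phosphate dehydrogenase of the endoplasmic reticulum, with 3.34, 6.90 and 14.3 in control and 62.8, 75.5 and 100 in knockdown libraries. Here the order was the other way round, with both knockdown libraries of batch 1 above all of batch 2.

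The third strongest peak (chr6:41498868-41499573) overlapped the lncRNA LINC01276, 46808 bp from FOXP4, which encodes a forkhead transcription factor. Its values were 5.74, 8.04 and 11.7 in control and 57.5, 82.5 and 89.2 in knockdown libraries. A peak far from any gene (chr6:85111513-85112207) had NT5E, which encodes the ectonucleotidase CD73, as its nearest protein-coding gene at 337876 bp. It had 2.25, 10.6 and 12.51 in control and 53.3, 62.6 and 74.7 in knockdown libraries. Both peaks thus stood well apart in all 12 libraries.

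The fifth peak lay in ATP11A (chr13:112795805-112796704), the gene of a phospholipid flippase, with 5.63, 9.39 and 17.0 in control and 37.7, 59.6 and 72.1 in knockdown libraries. A peak 3714 bp from NIPSNAP1, which encodes a mitochondrial protein, followed (chr22:29584827-29585791) with 6.76, 8.48 and 14.3 against 50.6, 56.0 and 65.0. Both belonged to the members with control means near the threshold (9.86 ± 4.24 and 9.30 ± 2.73, SD, n = 6).

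Peaks within B3GAT2 (chr6:70914476-70915355) and B4GALT5 (chr20:49657314-49657975), genes of enzymes that add glucuronic acid and galactose to sugar chains, came next. B3GAT2 had 4.26, 7.58 and 11.1 in control and 30.9, 47.8 and 66.9 in knockdown libraries. B4GALT5 had 6.38, 9.25 and 10.5 against 35.7, 50.9 and 53.3. The spread over knockdown libraries was wider at B3GAT2 (SD 13.6) than at B4GALT5 (SD 6.95). The last of the 10 were a peak in PARVB (chr22:44163852-44164845), which encodes the adhesion protein beta-parvin, and a peak 69570 bp from AZIN1 (chr8:102755936-102756732), the gene of an antizyme inhibitor. PARVB had 5.18, 9.55 and 10.1 against 34.8, 41.8 and 56.0, and the AZIN1 peak 1.91, 8.26 and 11.1 against 32.0, 43.6 and 49.9. In all 10 peaks every knockdown library lay above every control library. The rule and the ranking by knockdown mean favour this, which held for 88.1% of the members and 12.4% of all peaks.

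**Figure D2:**
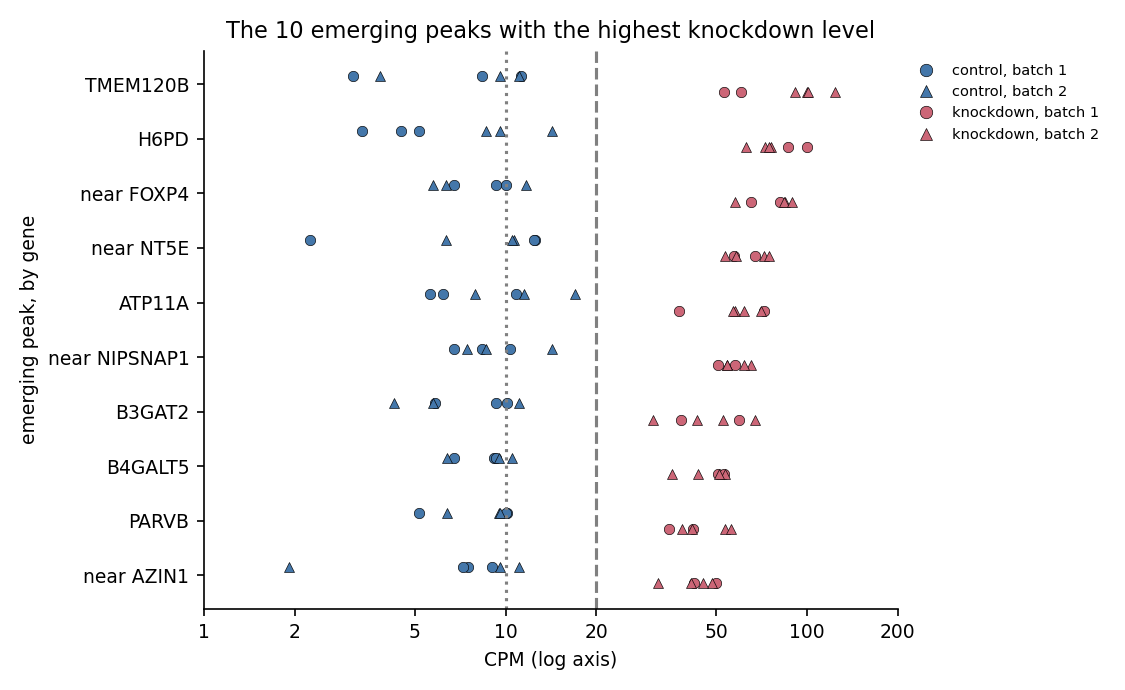
Levels in CPM (log axis) of the 10 emerging peaks with the highest knockdown mean, named by the gene they lie in or the nearest protein-coding gene, with 1 point per library (circles batch 1, triangles batch 2) and dotted and dashed lines at 10 and 20. Control libraries lie between 1.91 and 17.0 and knockdown libraries between 30.9 and 124, without overlap in any of the 10 peaks, which the rule favours.

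The 5 members with the lowest control mean lay in CRYL1, FBLN1, NOS3 and RABGAP1L and near KLHL3. FBLN1, which encodes the extracellular matrix protein fibulin-1, had a ratio of means of 11.8, over a control mean of few reads. On the log2 scale of means plus 1 it had 3.18, below the 3.33 of TMEM120B. Its peak (chr22:45531822-45532456) had 0, 3.02 and 6.22 CPM in control and 20.7, 36.7 and 44.2 in knockdown libraries, that is 0 to 6 reads against 29 to 76. NOS3, which encodes endothelial nitric oxide synthase, had 0, 2.84 and 6.70 in control and 23.8, 28.2 and 34.1 in knockdown libraries (chr7:150999282-151000041). The groups did not overlap at either gene, which the choice favours, and no control library had more than 7 reads at either.

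The peak in CRYL1 (chr13:20461440-20462246), which encodes lambda-crystallin, had 1.04, 3.18 and 5.74 in control and 13.4, 21.5 and 28.2 in knockdown libraries. RABGAP1L, the gene of a Rab GTPase-activating protein, had 0, 4.07 and 5.004 against 13.6, 24.6 and 29.0 (chr1:174797280-174797928). The peak 50878 bp from KLHL3, which encodes a substrate adaptor of a ubiquitin ligase, had 2.07, 2.84 and 5.32 against 20.2, 24.6 and 34.8 (chr5:137565801-137566622). None of these groups overlapped, which the choice favours, and the knockdown levels of CRYL1 and RABGAP1L were close to the threshold of 20.

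Direction and size were then compared between the batches. The knockdown mean was above the control mean in both batches in all 481 peaks, and at least 2-fold above it in both batches in 389. The rule used both batches and kept only peaks whose pooled means lay at least 2-fold apart, so it favours both counts. Over all peaks, the knockdown mean was the higher in 50.9% in batch 1 and in 48.9% in batch 2. The median log2 ratio (of means plus 1) was 1.65 in batch 1 and 1.47 in batch 2. The median control level was 7.14 CPM in batch 1 and 8.83 in batch 2, and the median knockdown level 23.4 and 25.3. Both thresholds were met in each batch alone by 224 peaks (46.6%), in batch 1 alone by 122, in batch 2 alone by 99, and by 36 only with the batches pooled.

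Every knockdown library lay above every control library in 424 of the 481 peaks (88.1%), which the rule favours, where 12.4% of all peaks did so. Within batch 1 the count was 477 (99.2%, all peaks 27.4%), within batch 2 it was 453 (94.2%, all peaks 19.5%), and within both it was 449 (93.3%, all peaks 14.8%). There was no member whose groups overlapped in both batches, which the rule also favours. This was not counted over all peaks, so nothing is read from it. Of the named peaks, those near DNAJB8 and in BRCA1 overlapped over all libraries. For example, BRCA1 had 2.50, 10.1 and 12.4 in control and 12.4, 20.8 and 24.1 in knockdown libraries.

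Over all 12 libraries, DESeq2 with batch as covariate called all 481 peaks gained (adjusted p under 0.05, fold change over 1.1), where it called 21.3% of all peaks gained. As the rule used the same contrast, nothing is read from this count. Whether the effect differed between batches was not part of the rule and was tested by the product of genotype and batch. DESeq2 called 0 of the 481 peaks (0% of all peaks), and so did edgeR, with a smallest DESeq2 adjusted p of 0.999864. At an unadjusted p under 0.05 there were 22 members (4.57%, all peaks 2.51%) by DESeq2, 17 with the larger effect in batch 1 and 5 in batch 2, and 37 by edgeR (all peaks 5.34%). H6PD and GNLY were among the 22: H6PD had a log2 ratio of 4.14 in batch 1 and 2.62 in batch 2, and GNLY had 2.61 and 1.43.

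The thresholds were then applied to 1 batch and the peaks tested in the other with DESeq2, adjusted over all peaks. The counts of the batch of test did not enter the thresholds. The peak table itself held peaks called per condition and reproducible between the batches, so the batch of test had a part in it. A peak weak in control cells may have entered through the knockdown libraries of both batches. A gain was therefore favoured in advance, and the shares over all peaks are no matched background. Peaks weak in both groups had medians of 7.39 CPM in control and 14.6 in knockdown cells. In batch 1 alone, 661 peaks met the thresholds, of which 346 were among the 481. In batch 2, 460 of these were gained (69.6%, against 12.8% of all peaks) and 0 lost. The mean CPM was higher in knockdown cells for 656 of 661, and for 48.9% of all peaks. At an unadjusted p under 0.05, 546 were higher (all peaks 18.1%). The median log2 fold change was 1.74 in the batch of choice and 1.34 in the batch of test (quartiles 0.92 and 1.76, median SE 0.40), and over all peaks it was -0.013.

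In the opposite direction, 456 peaks met the thresholds in batch 2, and 194 of them were gained in batch 1 (42.5%, against 5.38% of all peaks) and 0 lost. The mean CPM was higher in knockdown cells for 453 of 456 (all peaks 50.9%). By DESeq2, 334 were higher at an unadjusted p under 0.05 (all peaks 12.1%). The median log2 fold change was 1.66 in the batch of choice and 1.52 in batch 1 (quartiles 1.12 and 1.99, median SE 0.58). The number of calls in batch 1 changed with single libraries and with the tool. It was 86 or 87 without control replicate 2 or 3, and 356 with edgeR. Leaving out knockdown replicate 1 or 2 left a single knockdown library, assumed to vary like the controls, so no count is given. Of all peaks, 1.96% or 1.90% were gained without control replicate 2 or 3. With edgeR the shares gained were 82.8% in batch 2 (all peaks 18.3%) and 78.1% in batch 1 (all peaks 13.2%).

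Read library by library, the peaks chosen in the other batch separated by genotype. Over the 456 peaks chosen in batch 2, the 3 control libraries of batch 1 had medians of 6.76, 7.51 and 8.29 CPM and the 2 knockdown libraries 21.5 and 21.9. Over the 661 peaks chosen in batch 1, the 3 control libraries of batch 2 had medians of 9.57, 9.57 and 11.1 and the 4 knockdown libraries 24.4 to 25.3. Each library stood with its labelled genotype at peaks whose thresholds did not use it. The peak table was made from all libraries grouped by condition, so this is no independent check of the labels. The knockdown libraries were above all control libraries in 419 of 456 peaks in batch 1 (91.9%, all peaks 27.4%) and in 519 of 661 in batch 2 (78.5%, all peaks 19.5%). Both thresholds were met again in the batch of test by 224 peaks, which is 33.9% of the 661 and 49.1% of the 456. The control median of the 661 peaks moved from 7.82 in the batch of choice to 10.4, so that the control threshold was the one more often missed.

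**Figure D3:**
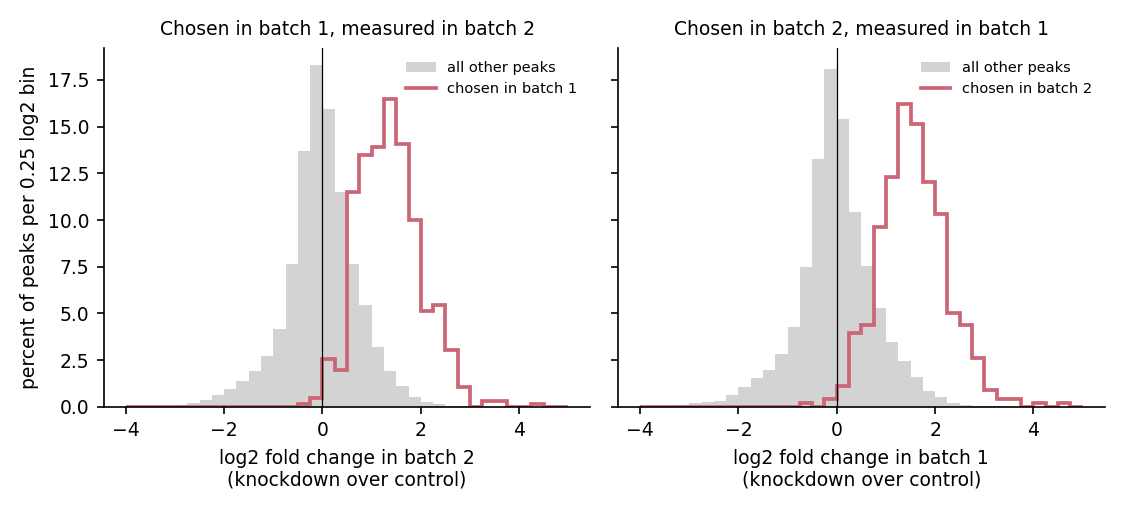
Fitted log2 fold change of knockdown over control in the batch to which the thresholds were not applied, as percent of peaks per bin of 0.25, for the chosen peaks (red line) and all other peaks (grey). Libraries of both batches had a part in the peak table. The 661 peaks chosen in batch 1 centre on 1.34 in batch 2 and the 456 chosen in batch 2 centre on 1.52 in batch 1, while the other peaks centre near 0.

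Emerging peaks lay mostly away from gene ends. The gene table gives the 2 ends of each gene without strand or exons, so distances are to the nearer end of a protein-coding gene, and no intron or exon is named. Within 1 kb of an end lay 23 of the 481 peaks (4.78%, 95% Wilson interval 3.21 to 7.07), where 24.4% of all peaks did. The peaks weak in both groups (5.09%) and the vanishing peaks (4.03%) had similar shares, within that interval. The 10 to 50 kb band held 209 emerging peaks (43.5%, all peaks 30.7%), and 144 lay over 50 kb away (29.9%, all peaks 23.3%). The median distance was 24778 bp, against 12522.5 bp over all peaks, 26291 bp for peaks weak in both groups and 32618 bp for vanishing peaks. Over 50 kb away lay 32.7% of the peaks weak in both groups and 38.3% of the vanishing peaks, so a greater distance was not particular to emerging peaks.

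**Figure D4:**
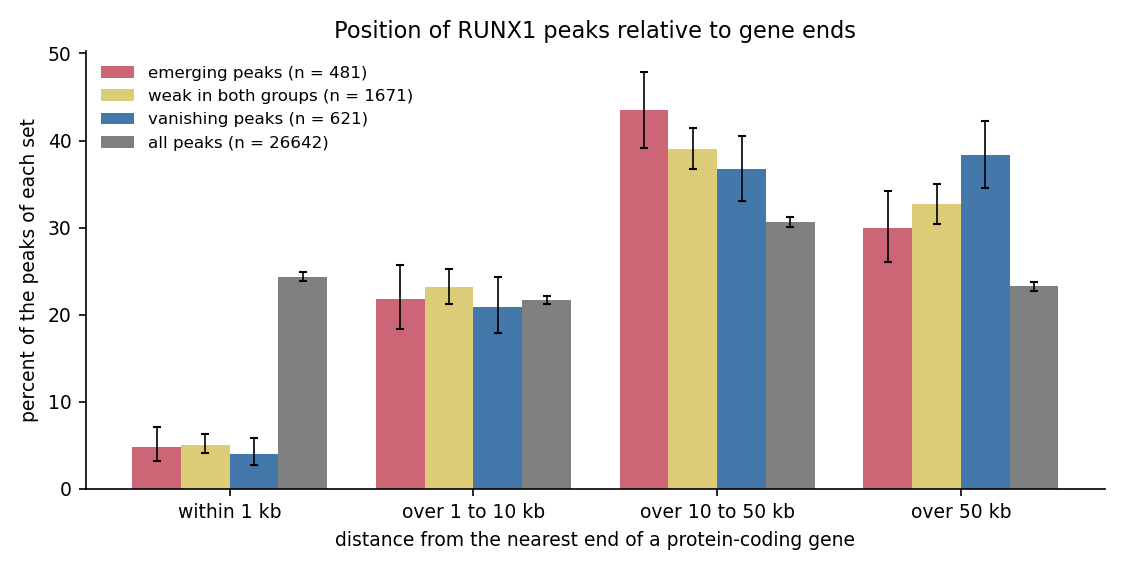
Percent of peaks by distance from the nearest end of a protein-coding gene, for emerging peaks, peaks weak in both groups, vanishing peaks and all peaks. Bars start at 0 and error lines are 95% Wilson intervals; 4.78% of emerging peaks lie within 1 kb against 24.4% of all peaks, and the 3 sets that are weak in control or knockdown cells resemble one another in this bin.

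A protein-coding gene was overlapped by 235 members (48.9%, all peaks 61.9%), and 246 lay between such genes. Of the latter, 56 overlapped a lncRNA gene. Emerging peaks were narrower than the typical peak, at a median of 657 bp wide (469 to 1215 bp) against 889 bp over all peaks, 548 bp for peaks weak in both groups and 675 bp for vanishing peaks. Width follows the authors' peak calls on the same libraries. Distance and width went with peak strength in these comparisons, and the part of strength in the shares was not tested.

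Of the 23 peaks within 1 kb of a gene end, the strongest lay in ZNF469, a zinc finger gene, followed by GNLY and by TEKT4, which encodes a filament protein of cilia and flagella. ZNF469 (chr16:88439536-88440206) had 3.83, 8.11 and 12.7 CPM in control and 35.3, 38.5 and 44.8 in knockdown libraries. TEKT4 (chr2:94871174-94871852) had 1.59, 6.57 and 11.7 against 21.3, 34.4 and 42.3. Their groups did not overlap, which the rule favours.

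The next of these peaks lay at H2BK1, a histone H2B gene, CDIPT, the gene of phosphatidylinositol synthase, and DLG5, a scaffold gene of cell polarity. Their means were 8.63 ± 5.91, 7.23 ± 3.70 and 8.88 ± 2.08 CPM (SD, n = 6) in control cells. In knockdown cells they were 30.9 ± 6.24, 29.4 ± 6.11 and 27.0 ± 4.78. CLDN10, which encodes a tight junction protein, had 6.56 ± 2.65 and 26.4 ± 6.87, and EPHA2, which encodes an ephrin receptor kinase, had 9.41 ± 5.19 and 25.8 ± 2.84. The peaks at HHIPL2 (9.45 ± 5.06 and 25.6 ± 8.76) and CHD9NB (3.84 ± 3.48 and 25.5 ± 5.48) completed the 10 strongest. The knockdown libraries lay above the control libraries at each of these genes, which the rule favours. Expression was not measured here, so whether any of these genes responded is unknown from these data.

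The members were spread over many genes. Of 235 distinct protein-coding genes overlapped, 226 held 1 emerging peak, 8 held 2 and PRELID2 held 3. The 8 were GSE1, RAB11FIP4, PTPRU, SYN3, MPRIP, HNF4A, TTC39A and UNC5B, of which all but the first pair are named after their values were seen. They include genes best known outside blood, such as HNF4A, a hepatocyte transcription factor, UNC5B, a netrin receptor, and SYN3, a synapsin. GSE1 and SYN3 also held many other peaks (18 RUNX1 peaks in all in each), while both RUNX1 peaks of HNF4A and both of PTPRU were emerging.

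When members at most 50 kb apart were joined, 456 stood alone, 22 formed 11 pairs and 3 formed a triplet. The triplet lay within PRELID2 (chr5:145699752-145788073), a gene of the PRELI family of mitochondrial proteins, with no other RUNX1 peak between its members, and a vanishing peak lay 9929 bp from the first of them. Its peaks had control means of 9.35 ± 2.22, 5.91 ± 4.29 and 5.41 ± 1.04 and knockdown means of 33.7 ± 9.26, 27.1 ± 9.97 and 25.6 ± 2.84 CPM (SD, n = 6). PARVB and its neighbour PARVG, which encodes a parvin of blood cells, held a pair (chr22:44163852-44187566), with 44.4 ± 8.49 and 30.8 ± 3.59 in knockdown cells. Between these 2 lay 2 further peaks, of which 1 was lost in the fit over all libraries. The pairs in GSE1 (chr16:85354728-85382490), near DPPA4, a pluripotency-associated gene (chr3:109412881-109417559), and in RAB11FIP4, an effector gene of Rab11 (chr17:31499996-31534739), had summed means of 13.9, 12.01 and 13.3 in control and 66.3, 60.2 and 59.1 in knockdown cells.

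The peaks around the members were then examined, using the gained and lost calls of the fit over all libraries. Of the 481 members, 115 (23.9%, all peaks 21.2%) had no other RUNX1 peak within 50 kb. A gained neighbour was present for 197 (41.0%, all peaks 34.4%) and a lost neighbour for 114 (23.7%, all peaks 32.4%). Of the peaks weak in both groups, 34.5% had a gained and 24.1% a lost neighbour. Over 979 pairs of a member and a neighbour, 31.4% of neighbours were gained and 14.1% lost, where all peaks had 21.8% and 19.2%. Vanishing peaks had the opposite balance, with 16.9% gained and 27.8% lost, and peaks weak in both groups had 26.9% and 16.4%. Neighbouring peaks share the same libraries, so these shares are descriptions.

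**Figure D5:**
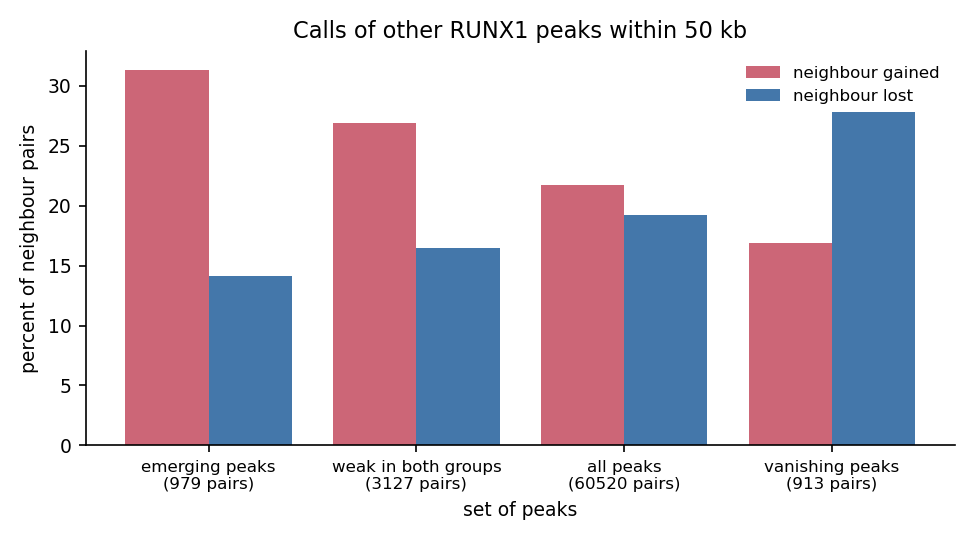
Percent of pairs of a peak and another RUNX1 peak within 50 kb in which the neighbour was called gained (red) or lost (blue), for 4 sets of peaks; bars start at 0. Around emerging peaks 31.4% of neighbours were gained and 14.1% lost, and around vanishing peaks 16.9% and 27.8%.

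Both gained and lost neighbours were present for 54 members (11.2%, all peaks 12.4%), and 7 had a vanishing peak within 50 kb (1.46%, all peaks 3.33%). The nearest peak within 50 kb, present for 366 members, had a higher mean in knockdown cells for 217 (59.3%, all peaks 49.9%) and a median log2 ratio of 0.14 (all peaks -0.0013). For peaks weak in both groups these were 57.0% and 0.11, so this was not particular to emerging peaks. Among the 10 strongest members, H6PD had 4 gained and 0 lost among 6 neighbours, PARVB 5 gained and 1 lost among 8, and the AZIN1 peak 0 gained and 0 lost among 6. The peak in B3GAT2 had no neighbour. Over windows of 10 Mb, the median log2 ratio of all peaks around a member was 0.013, with quartiles of -0.048 and 0.082, against -0.0048 around all peaks. Around peaks weak in both groups it was 0.0093.

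Among chromosomes 1 to 22 and X, the share of peaks that were emerging was highest on chromosome 13 (3.04%, 18 of 593). Next were chromosomes 10 (2.55%), 22 (2.50%) and 15 (2.39%). On the autosomes lay 466 members and on chromosome X 12. The remaining members lay on chromosome Y, which was not included, so its share is not ranked here. The share was lowest on chromosomes 11 (0.551%, 5 of 907), 21 (0.571%, 2 of 350) and 18 (0.906%, 5 of 552). The median log2 ratio of all peaks was 0.15 on chromosome 10, 0.16 on 22 and -0.26 on 11, and so ran in the direction of the share there. It was -0.027 on chromosome 13, -0.17 on 15 and 0.029 on 21, where it did not, and -0.074 on 18. The copy number of the lines was not measured here, and its part in these shares was not tested.

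Emerging peaks were then counted near genes of blood cell identity, autophagy and survival. Of the 20442 peaks within 50 kb of any protein-coding gene end, 337 (1.65%) were emerging, and the lists below were read against this share. Near T lymphoid genes 0 of 59 peaks were emerging, near B lymphoid genes 0 of 38, near neutrophil genes 0 of 55, and near Ikaros, Spalt-like and CEBP factors 0 of 37. Near BCL2 family genes 0 of 68 and near survival genes named by the study 0 of 30 were emerging. At these list sizes, a share like the background gives about 1 peak or fewer, so an absence says little.

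Single members fell near the other lists. Of 40 peaks near RUNX factors and partners, 2 were emerging. One lay in TLE3 (chr15:70092903-70093712), which encodes a corepressor of the Groucho family that binds RUNX proteins, with 3.83, 8.83 and 12.8 CPM in control and 23.4, 31.8 and 43.3 in knockdown libraries. The other lay in GALNS (chr16:88853242-88853878), a lysosomal sulfatase gene, 20980 bp from CBFA2T3, a corepressor gene of the ETO family. It had 4.14, 7.10 and 18.2 against 25.6, 31.7 and 43.4, without overlap as at TLE3. CBFA2T3 had 9 RUNX1 peaks within 50 kb in all, of which 4 were gained and 3 lost.

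Of 128 peaks near autophagy genes, 2 (1.56%) were emerging. One lay in MRNIP, 16982 bp from SQSTM1, the gene of the autophagy receptor p62, with 7.93 ± 3.75 in control and 23.1 ± 6.06 in knockdown cells. The other was the peak in BRCA1, a DNA repair gene, 27629 bp from NBR1, another autophagy receptor gene, with 9.003 ± 3.71 and 20.1 ± 4.21. Over all peaks of this list, 24 were gained (18.8%) and 30 lost (23.4%), where 19.8% and 19.7% of all peaks near protein-coding genes were.

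Near megakaryocyte and erythroid genes 1 of 45 peaks was emerging, the ZNF469 peak 11563 bp from ZFPM1, which encodes the GATA1 cofactor FOG1. Near stem and progenitor genes it was 1 of 44, a peak 645 bp from DNAJB8 and 17630 bp from GATA2, with 9.62 ± 3.50 in control and 20.4 ± 4.81 in knockdown cells. Near monocyte and macrophage genes it was 1 of 56, a peak 3588 bp from PDGFRB and 46068 bp from CSF1R, the receptor of the monocyte growth factor, with 7.97 ± 1.88 and 30.5 ± 7.07. Of all peaks of the last list, 5 were gained (8.93%) and 19 lost (33.9%), and of the stem and progenitor list 9 (20.5%) and 8 (18.2%), beside the same shares of 19.8% and 19.7%. The nearest gene need not be the one that a peak acts on, and several of these peaks lay closer to a gene outside the lists.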

How the data were processed

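RUNX1 ChIP-seq of THP-1 cells was analysed from the deposited raw counts, 1 per peak and library (12 of 20 samples; the 8 IgG samples were not used here). According to the study's methods, the authors used bowtie2 for alignment, removed duplicates, called peaks with macs2 per condition and batch, kept peaks reproducible between batches, merged them and counted reads with featureCounts, without normalization. The deposited table also gives peak widths, other information that was described and not tested. Which condition gave rise to a peak is not marked in the table. The methods name a mouse build, whereas 24.4% of peaks lay within 1 kb of a RefSeq gene end of GRCh38.p14, and coordinates were taken as GRCh38.

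Groups and batches follow the labels. Levels in CPM used in-peak totals. Counts were tested with DESeq2 1.42.0 (R 4.3.3; Wald test, Benjamini-Hochberg over all peaks; gained or lost at adjusted p under 0.05 and fold change over 1.1), with batch as covariate or within a batch, and with edgeR 4.0.16 as alternative. The p-values measure the spread between separate immunoprecipitations of 1 line per genotype. No duplicate libraries were found: the chi-square per degree of freedom between libraries of a group was 1.29 to 2.24. Before use, DESeq2 and edgeR were each tested on simulated data.

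Named peaks were the 10 with the highest knockdown mean, the 10 highest within 1 kb of a gene end, the 3 highest near each gene list, the 5 leading stretches and the 5 with the lowest control mean. Peaks next to the thresholds are given by value only. The members and gene lists were chosen with earlier results of these data known. Alternatives were other scalings, thresholds, centring on 10 Mb windows, filters, a replicate block and leaving out each library.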

Additional observations from a re-analysis of the deposited data

How the results depend on the processing

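The emerging set numbered 442 to 594 peaks when single libraries were left out, and 224 when both thresholds had to be met in each batch, 33 with a control mean under 5 and 217 with a knockdown mean of 25 or more. Other scalings, medians, averaged batch means, autosomes only and local centring gave 459 to 562. For the 661 peaks chosen in batch 1, the number gained in batch 2 was 320 to 423 without single libraries of batch 2. Of all peaks, 7.72% to 10.9% were gained in these fits. Without single libraries of batch 1, 675 to 744 peaks were chosen, of which 449 to 487 were gained (all peaks 12.8%). The replicate block gave 263 of the 661. With the block, that was 39.8%, against 4.89% of all peaks. Of the 456 chosen in batch 2, the number gained in batch 1 was 3 to 249 without single libraries (3 and 8 without knockdown replicate 2 or 1), 7 with the replicate block, 356 with edgeR and 99 at an adjusted p under 0.01. Of all peaks, the shares gained in batch 1 were 0.139% with the block, 13.2% with edgeR and 2.27% at an adjusted p under 0.01. The replicate numbers did not pair the libraries: deviations of same-numbered libraries correlated at -0.065 to 0.014, and 1 of 12 libraries correlated best with its own number. Requiring 10 counts or more in each library left 0 of the 481 peaks in the fit, so 0 were called gained there, where 3011 other peaks were. Leaving out single libraries gave 480 to 481, where 4916 to 5435 of all 26642 peaks were gained. The rule used the same contrast, so nothing is read from these counts. Batch differences numbered 22 at an unadjusted p under 0.05 and 0 without any single library. The share near gene ends was 3.43% to 5.35% without single libraries, 17.5% within 5 kb and 26.6% within 10 kb (all peaks 24.4% within 1 kb, 36.6% within 5 kb and 46.1% within 10 kb). The log2 ratios of the 41 named peaks, which do not include those next to the thresholds, moved by less than the spread between libraries under all 697 alternative values. Most of these values leave out 1 library, which can hardly move a mean over 6 libraries by that spread. This outcome was therefore favoured in advance.

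Depth limits single peaks: the median member had 6 to 8 reads in a control library. The causes of the changes with the block, with edgeR and with single libraries in batch 1 were not tested.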
